A study of Sus scrofa with 20 samples.

Results

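De novo fatty acid synthesis, the pathway by which cells build fatty acids from carbohydrate carbon, was followed through its enzymes in backfat and liver of the pig. The genes were chosen by name, with earlier results of these data known. The 9 symbols (ACLY, ACACA, ACACB, FASN, SCD, ELOVL6, ME1, PGD and SLC25A1) were matched to pig Ensembl identifiers, and 8 of them were found among the 31907 genes of the count table. The identifier paired with ACACB was not among those genes, so that ACACB, the mitochondrial form of acetyl-CoA carboxylase, was not analysed here. All 8 genes found passed the filter on low counts, as did 16275 genes in all.

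The samples came from 5 Nanchukmacdon boars labelled as wild type and of normal disease state, with an age of 22 months in the sample labels, while the methods of the study give another average age. The labels give no treatment for either group. Bulk backfat, the subcutaneous fat of the back, and bulk liver of each boar were sequenced by poly(A) RNA-seq, which gave 5 libraries per tissue. The numbers 65, 67, 69, 71 and 72 stand in the column names of the counts for both tissues. They are read here as the boars and used to name libraries, while the sample titles do not name the boar. Whole-genome bisulfite libraries of the same tissues were not used. Each boar of this 1 breed gave 1 library of each tissue, so that the libraries within a tissue are from separate animals and p-values measure the spread between animals.

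In a cell making fat, citrate leaves the mitochondrion through the citrate carrier SLC25A1 and is split by ACLY into oxaloacetate and cytosolic acetyl-CoA. Acetyl-CoA carboxylase turns acetyl-CoA into malonyl-CoA, fatty acid synthase (FASN) joins these units into palmitate with electrons from NADPH, and ELOVL6 and SCD then lengthen the chain and put in a double bond. NADPH comes from malic enzyme (ME1) and from the pentose phosphate pathway, of which PGD is a part, and in the pig, unlike in humans and birds, adipose tissue rather than liver is known as the main site of this synthesis.

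Levels are given in CPM, counts divided by the library total and set to a common scale, after TMM, a factor that corrects for differences in library composition. A gene was called when the adjusted p of edgeR's quasi-likelihood test was at most 0.05 and the log2 fold change, backfat over liver, was at least 2 in size, which are the thresholds of the study. Library totals lay between 45157114 and 61772737 counts in backfat and between 43820042 and 53768601 in liver. Mitochondrial genes took 44.5% of the counts of the liver library of boar 67, which set it apart from the other liver libraries, and the backfat library of boar 69 had more hepatocyte marker RNA (165 CPM) than the other 4 backfat libraries (4.41 to 5.94 CPM). Leaving out both libraries changed no call of a member, and the largest shift in the log2 fold change of a member was 0.082.

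Of the 8 enzymes, 5 were called higher in backfat (ACLY, FASN, ELOVL6, SCD and ME1), where 11.1% of all genes tested were called in this direction, and 0 were called higher in liver, where the share of all genes was 11.2%. With the fold threshold left out, 7 of the 8 were higher in backfat (28.0% of all genes tested) and 0 higher in liver (27.0%), with ACACA and PGD joining the 5 and SLC25A1 left out. The median log2 fold change of the 8 was 2.66, and that of all genes tested was 0.00. For 6 of the 8, every backfat library lay above every liver library, which held for 22.9% of all genes tested, and for 0 of the 8 was every liver library above every backfat library (19.7% of all genes tested). Added together, the 8 genes took 0.440% to 2.41% of the counts of a backfat library and 0.0453% to 0.158% of those of a liver library. In bulk tissue, fewer cells of a type and less RNA per cell cannot be told apart.

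**Figure D1:**
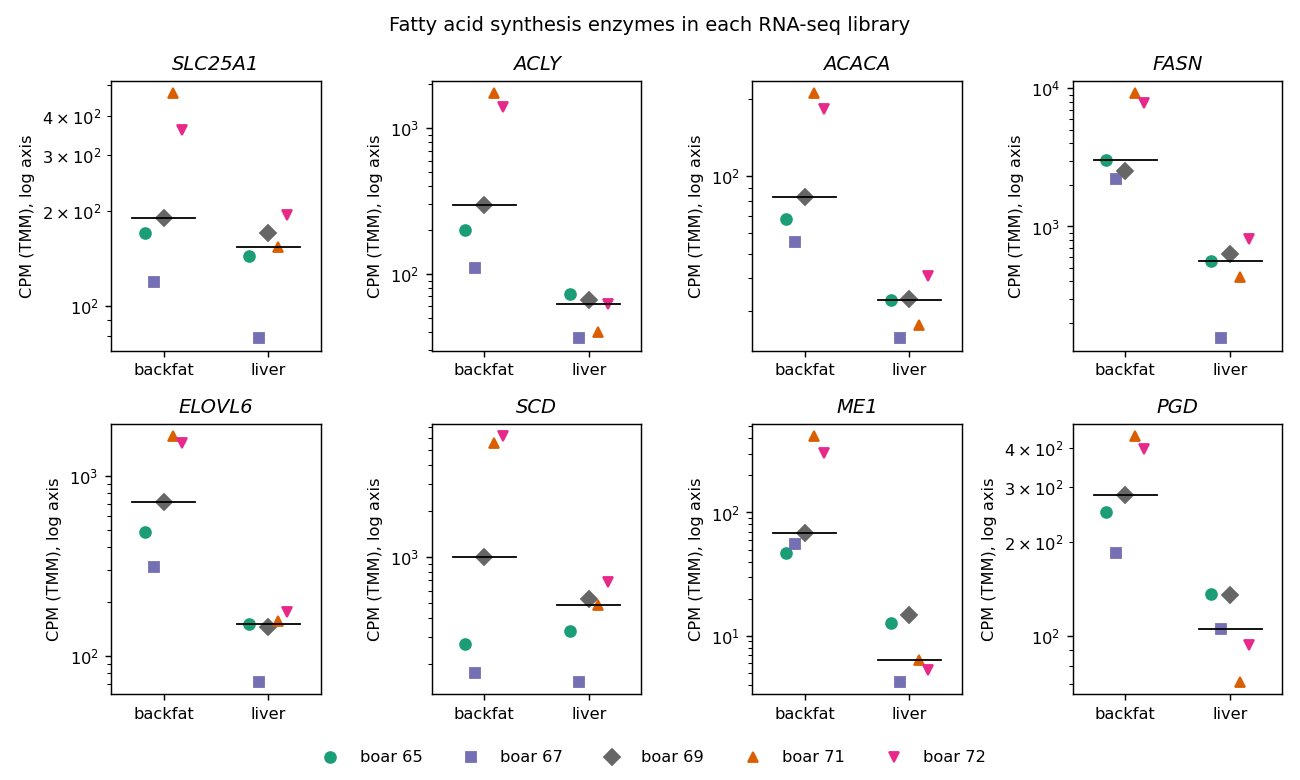
CPM after TMM of each enzyme in the 10 libraries, on log axes that differ between panels; each symbol is 1 boar and the black line is the median of the 5 libraries of a tissue. In every panel the backfat libraries of boars 71 and 72 stand above those of the other 3 boars, and backfat overlaps liver only for SLC25A1 and SCD.

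The stretches of 250 bases before the RefSeq starts of the 5 called genes are shown because these are the members that passed both thresholds. They are taken from the Sscrofa11.1 genome, the build of the counts, and written 5′ to 3′ on the strand of the gene. Capitals mark the sequence GGGCGG, a match to the core of the Sp1 site, and CCAAT, a match to the core of the NF-Y site, on either strand, so that CCGCCC and ATTGG are capitals as well. The annotated start need not be the start used in these tissues.
ACLY (chr12:20796428-20796677, plus strand): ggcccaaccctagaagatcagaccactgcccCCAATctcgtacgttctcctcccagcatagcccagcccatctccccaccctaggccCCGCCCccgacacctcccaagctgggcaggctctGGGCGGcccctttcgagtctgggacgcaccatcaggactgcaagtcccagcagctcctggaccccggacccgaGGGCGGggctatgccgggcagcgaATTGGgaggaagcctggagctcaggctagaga
FASN (chr12:922155-922404, plus strand): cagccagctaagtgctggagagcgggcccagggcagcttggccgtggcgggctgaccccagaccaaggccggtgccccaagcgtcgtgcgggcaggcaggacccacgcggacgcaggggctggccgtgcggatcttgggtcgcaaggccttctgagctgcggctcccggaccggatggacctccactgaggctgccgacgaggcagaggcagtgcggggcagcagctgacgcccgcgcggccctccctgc
ELOVL6 (chr8:112038420-112038669, plus strand): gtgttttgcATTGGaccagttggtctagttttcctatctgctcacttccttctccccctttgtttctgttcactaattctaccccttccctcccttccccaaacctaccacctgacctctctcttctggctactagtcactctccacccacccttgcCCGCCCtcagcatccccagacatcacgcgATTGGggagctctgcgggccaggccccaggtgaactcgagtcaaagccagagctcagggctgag
SCD (chr14:111461310-111461559, plus strand): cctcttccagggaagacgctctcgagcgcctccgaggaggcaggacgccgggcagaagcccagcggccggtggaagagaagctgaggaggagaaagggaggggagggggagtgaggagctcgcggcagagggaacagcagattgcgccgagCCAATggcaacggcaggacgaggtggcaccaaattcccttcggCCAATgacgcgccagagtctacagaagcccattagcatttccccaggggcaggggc
ME1 (chr1:82799628-82799877, plus strand): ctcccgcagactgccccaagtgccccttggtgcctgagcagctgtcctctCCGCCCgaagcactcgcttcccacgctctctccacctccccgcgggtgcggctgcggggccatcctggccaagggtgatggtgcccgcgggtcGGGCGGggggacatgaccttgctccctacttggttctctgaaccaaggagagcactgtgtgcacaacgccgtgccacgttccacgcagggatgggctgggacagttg

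Positions of matches are counted upstream of the annotated start, to the 5′-most base of the match on the strand of the gene. GGGCGG was found in the windows of ACLY (at 163, 129 and 56 bases), ELOVL6 (at 93) and ME1 (at 200 and 107), and in 45.9% of the windows of all 19556 protein-coding genes of the annotation. CCAAT was found in those of ACLY (at 219 and 32), ELOVL6 (at 241 and 64) and SCD (at 99 and 56), and in 31.9% of all windows. The window of FASN held neither. The E-box CACGTG was found in none of the 5, in 1 of the windows of the other 4 symbols (SLC25A1, at 49 bases) and in 6.39% of all windows. Its looser form CANNTG, which includes CACGTG, was found in those of FASN (at 28), ELOVL6 (at 234, 142 and 38) and ME1 (at 234, 212 and 6), and in 61.9% of all. The sterol regulatory element of the LDL receptor gene, searched as an exact match on both strands, was found in none of the members' windows and in 0.0307% of all. The windows of FASN, ME1, ACLY and SCD held 73.2%, 67.2%, 66.4% and 64.8% of G and C, above the median of all windows (57.6%), and that of ELOVL6 held 56%, below it. Such matches are descriptions of these windows and do not show binding.

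SLC25A1 (ENSSSCG00000010116; chr14:50974616-51002970, minus strand), the carrier that exports citrate from mitochondria, had 170, 119, 190, 472 and 362 CPM in the backfat of boars 65, 67, 69, 71 and 72, in this order, which is kept below. In their livers it had 144, 78.8, 170, 153 and 194 CPM. The tissues overlapped, although backfat was above liver in 5 of 5 boars. The log2 fold change of 0.83 ± 0.37 (SE) did not pass the test (adjusted p = 0.0780). It passed the adjusted p, at a small fold, with the boar as a block (0.70, adjusted p = 0.0451), without the backfat library of boar 67 (adjusted p = 0.0302) and when libraries were scaled by their totals alone (1.49, adjusted p = 0.00311), a scaling that shifted the median of all genes by 0.71. Without the backfat libraries of boars 71 and 72 the log2 fold change was 0.12 (adjusted p = 0.774).

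ACLY (ENSSSCG00000017421; chr12:20796678-20841301, plus strand) makes cytosolic acetyl-CoA from the exported citrate. It had 201, 110.5, 298, 1738 and 1389 CPM in backfat and 73.0, 36.0, 65.6, 39.9 and 62.4 CPM in liver. Every backfat library was above every liver library, and the highest backfat library stood 15.7-fold above the lowest. The mean was 748 ± 758 CPM (SD, n = 5) in backfat and 55.4 ± 16.4 CPM in liver, and the log2 fold change of 3.75 ± 0.72 (SE), or 13.5-fold, passed the test (adjusted p = 0.000761). Without the backfat libraries of boars 71 and 72 it was 1.89 (adjusted p = 0.00120), under the fold threshold.

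ACACA (ENSSSCG00000017694; chr12:38580916-38875067, minus strand), the cytosolic acetyl-CoA carboxylase, forms malonyl-CoA, the committed step of the pathway. Its level was 68.1, 55.3, 82.8, 210 and 182 CPM in backfat and 33.1, 23.4, 33.2, 26.4 and 41.0 CPM in liver. The groups did not overlap. At a log2 fold change of 1.93 ± 0.37 (SE), or 3.81-fold, ACACA was higher in backfat (adjusted p = 0.000680) but under the fold threshold. Leaving out the backfat library of boar 65, 67 or 69, or the liver library of boar 72, raised it past that threshold. The values were then 2.01 at least and 2.12 at most. Leaving out the backfat library of boar 71 or 72 lowered it, to 1.64 or 1.73. Without the backfat libraries of both boars 71 and 72 the log2 fold change was 1.14 (adjusted p = 0.00197). The gene C12H17orf78 overlaps ACACA on the other strand and shares 0 exonic bases with it in the RefSeq annotation.

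FASN (ENSSSCG00000029944; chr12:922405-937560, plus strand) carries out all steps of palmitate synthesis on 1 polypeptide. In backfat it reached 3046, 2214, 2529, 9212 and 7839 CPM, and in liver 565, 155, 634, 430 and 818 CPM. The lowest backfat library was above the highest liver library, and by itself FASN took 0.303% to 1.13% of all counts of a backfat library. The means were 4968 ± 3297 CPM (SD, n = 5) and 520 ± 248 CPM, with a log2 fold change of 3.26 ± 0.59 (SE), or 9.55-fold (adjusted p = 0.000492). Without the backfat libraries of boars 71 and 72 the log2 fold change was 2.33, still past both thresholds (adjusted p = 0.00295).

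ELOVL6 (ENSSSCG00000036236; chr8:112038670-112190079, plus strand) is the elongase that turns palmitate into stearate. Its backfat levels were 485, 311, 711, 1650 and 1512 CPM, against 149, 71.9, 144, 156 and 175 CPM in liver. All backfat libraries were above all liver libraries. The log2 fold change was 2.75 ± 0.47 (SE), or 6.71-fold (adjusted p = 0.000320), and 1.86 (adjusted p = 0.00143) without the backfat libraries of boars 71 and 72, which is under the fold threshold. An uncharacterized gene, LOC110261988, overlaps ELOVL6 on the other strand with 0 shared exonic bases in the RefSeq annotation.

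SCD (ENSSSCG00000010554; chr14:111461560-111478033, plus strand), the desaturase that makes oleate and palmitoleate, differed most among the boars. Backfat held 270.5, 174, 996, 5489 and 6094 CPM, a 35.1-fold range, while liver held 330, 153, 527, 484 and 682 CPM. Only the backfat libraries of boars 69, 71 and 72 lay above the highest liver library. In boar 65 backfat was below liver by 0.29 on the log2 scale, and in the other 4 boars it was above. The log2 fold change was 2.58 ± 0.90 (SE), or 5.98-fold (adjusted p = 0.0281). This call was lost with limma-voom (1.56, adjusted p = 0.141) and with the boar as a block (1.46, adjusted p = 0.0995). It was also lost when any of 5 libraries was left out, namely backfat of boar 71 (adjusted p = 0.0691) or 72 (0.0770) and liver of boar 65 (0.0553), 67 (0.0568) or 71 (0.0541). With both backfat libraries of boars 71 and 72 left out, the log2 fold change was 0.15 (adjusted p = 0.858).

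ME1 (ENSSSCG00000004454; chr1:82799878-82989895, plus strand), the cytosolic malic enzyme, yields NADPH while returning oxaloacetate carbon to pyruvate. With 46.9, 55.0, 67.7, 413 and 306 CPM in backfat and 12.7, 4.24, 14.8, 6.35 and 5.26 CPM in liver, it had the largest fold change of the 8 genes. No backfat library fell within the liver range. The log2 fold change was 4.35 ± 0.71 (SE), or 20.5-fold (adjusted p = 0.000206), and 2.71 without the backfat libraries of boars 71 and 72 (adjusted p = 0.000307).

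PGD (ENSSSCG00000003402; chr6:70675751-70692697, plus strand), the second NADPH-forming enzyme of the pentose phosphate pathway, had 250, 185, 284, 437 and 397 CPM in backfat and 136, 105, 135, 71.3 and 93.6 CPM in liver. The tissues were separate. The log2 fold change of 1.52 ± 0.28 (SE), or 2.87-fold, passed the adjusted p (0.000493) but not the fold threshold. Without the backfat libraries of boars 71 and 72 it was 1.15 (adjusted p = 0.00500). PGD was also the gene that varied least among the backfat libraries.

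**Figure D2:**
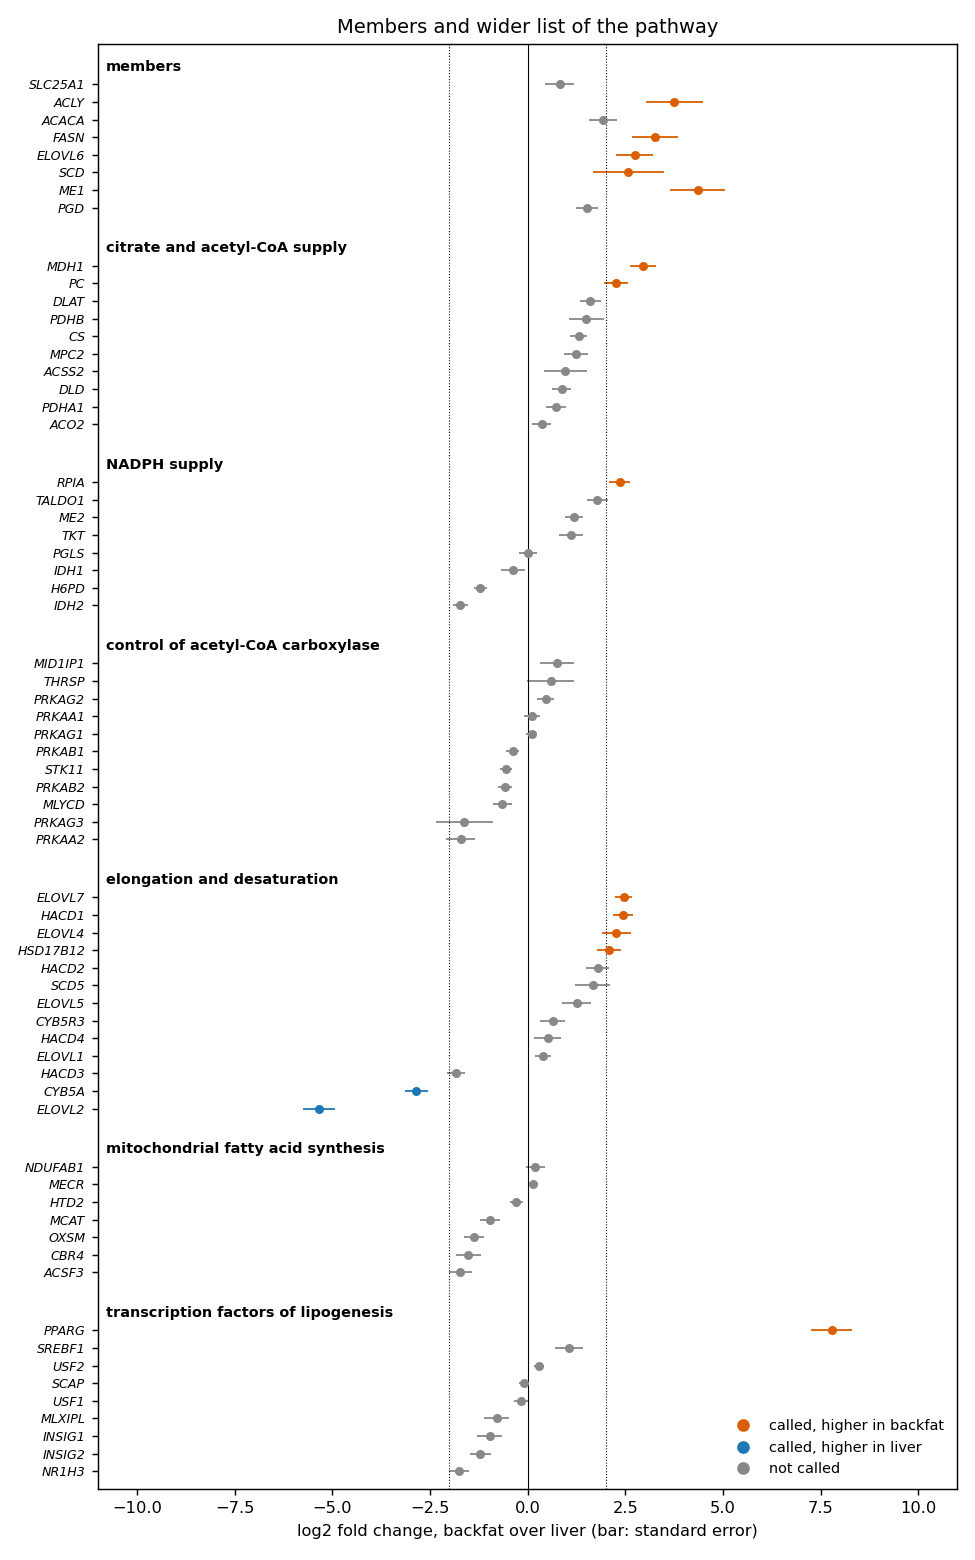
Log2 fold change (backfat over liver, horizontal axis) with its standard error for the 8 members and for tested genes of a wider list in 6 groups; dotted lines mark the fold threshold of 2 in either direction, and grey points were not called. The members lie between 0.83 and 4.35, all to the right of 0, while the wider list runs from -5.33 for ELOVL2 to 7.78 for PPARG.

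Scaled to exon length, which allows levels of different genes to be compared, FASN (588 ± 390 CPM per kb, SD, n = 5) and SCD (445 ± 502) had the highest means in backfat. ACLY (170 ± 172), PGD (166 ± 55.7), ELOVL6 (131 ± 85.4), SLC25A1 (99.4 ± 56.2), ME1 (33.5 ± 32.1) and ACACA (11.9 ± 7.08 CPM per kb) followed. The place of SCD differed between boars: in boars 65 and 67 it had 46.2 and 29.7 CPM per kb, below FASN, PGD, ELOVL6 and SLC25A1, and in boar 72 it had 1042 CPM per kb, above FASN (928). In backfat the intervals of mean ± SD overlapped for every pair of neighbours in this order. The order in liver began with SCD (74.4 ± 34.5 CPM per kb), FASN (61.6 ± 29.3), PGD (57.9 ± 14.9) and SLC25A1 (56.1 ± 16.4), whose intervals overlapped. It went on with ELOVL6 (19.5 ± 5.53), ACLY (12.6 ± 3.73), ACACA (3.13 ± 0.681) and ME1 (1.63 ± 0.896 CPM per kb). There the steps from SLC25A1 to ELOVL6 and from ACLY to ACACA left no overlap of these intervals, and those of the other neighbours overlapped.

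The enzymes varied more among the backfat libraries than most genes did. The SD of log2 CPM over the 5 backfat libraries was 2.38 for SCD, 1.75 for ACLY, 1.48 for ME1, 1.04 for ELOVL6, 0.96 for FASN, 0.86 for ACACA, 0.82 for SLC25A1 and 0.51 for PGD, with a median of 0.33 over all genes tested. SDs at least as large as that of SCD were found in 0.209% of all genes tested, as that of ACLY in 0.676%, as that of ME1 in 1.20%, and as that of PGD in 25.0%. ELOVL6 (3.72%), FASN (4.69%), ACACA (6.62%) and SLC25A1 (7.86%) lay between. In liver the same SD was 0.93 for FASN, 0.84 for SCD, 0.79 for ME1, 0.51 for ELOVL6, 0.50 for SLC25A1, 0.46 for ACLY, 0.39 for PGD and 0.32 for ACACA. Thus 8 of 8 members had the larger SD in backfat, which was so for 29.9% of all genes tested, whose median SD was 0.48 in liver. Expressed as a coefficient of variation, the spread in backfat ran from 33.6% for PGD to 113% for SCD, with a median of 23.2% over all genes tested.

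**Figure D3:**
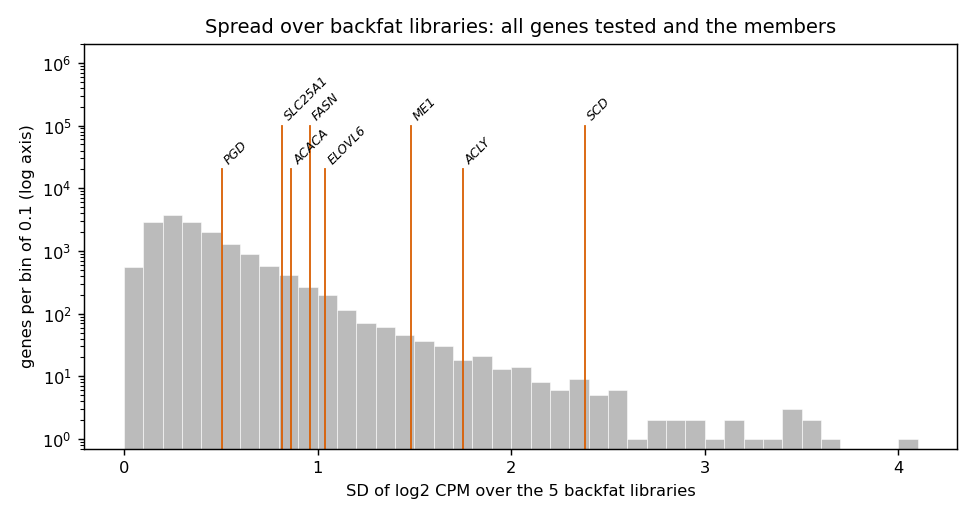
Number of genes (log axis) by the SD of log2 CPM over the 5 backfat libraries, in bins of 0.1 for the 16275 genes tested, with the 8 members marked by vertical lines whose height has no meaning. SCD (2.38), ACLY (1.75) and ME1 (1.48) stand in the far tail, and PGD (0.51) is nearest to the bulk of genes.

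The same animals were highest in each gene. The backfat libraries of boars 71 and 72 were the highest of the 5 in 8 of 8 members, a pattern picked out after the values were seen and found in 14.2% of all genes tested. Summed over the members, the level was 4538, 3223, 5159, 19621 and 18082 CPM in backfat and 1443, 627, 1724, 1367 and 2072 CPM in liver. The livers of boars 71 and 72 were not set apart in this way. For SLC25A1, ACLY, ACACA, ELOVL6 and PGD the order of the backfat libraries was the same, 71, 72, 69, 65 and 67 from high to low. FASN and ME1 kept boars 71 and 72 on top and differed in the lower 3, and SCD was highest in boar 72. In liver, boar 67 was the lowest in 7 of 8 members, the exception being PGD, which was lowest in boar 71. The share of all genes tested that were lowest in the liver of boar 67 was not counted. Its sum of hepatocyte markers (20340 CPM of all counts) was the lowest too, so this rank is not read as particular to the enzymes. That liver library also had the highest share of mitochondrial counts (44.5%) and the highest sums of red cell markers (1239 CPM of all counts, against 61.7 to 278 CPM in the other livers) and skeletal muscle markers (123 CPM, against 0.410 to 1.35 CPM), and the part of these in its low enzyme levels was not tested.

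**Figure D4:**
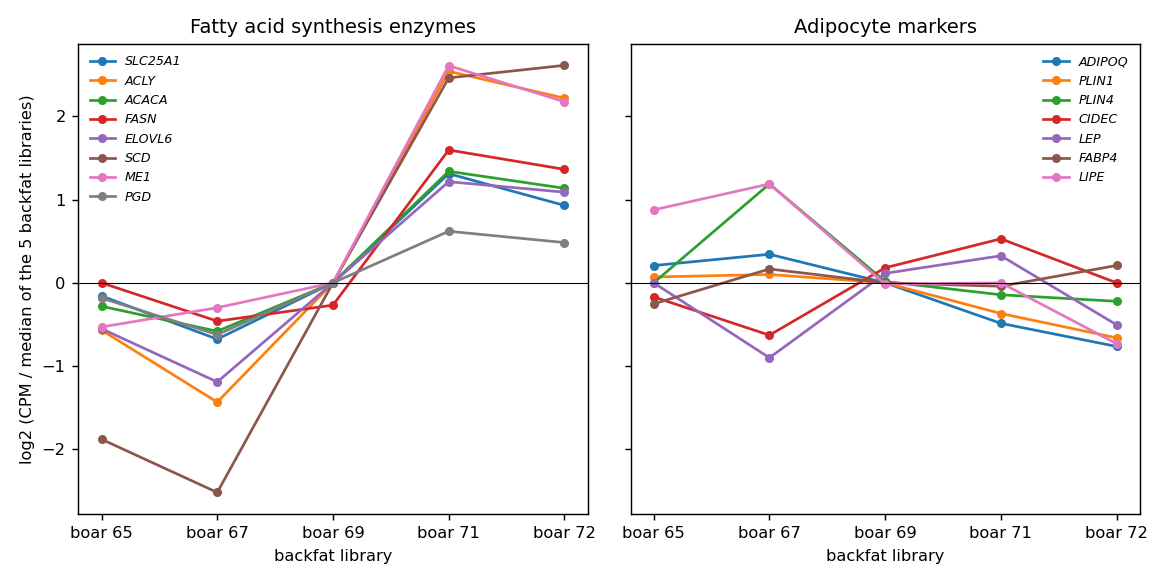
Log2 of the CPM in each backfat library over the median of the 5 backfat libraries, for the 8 enzymes (left) and for 7 adipocyte marker genes (right) on 1 vertical axis; lines join the libraries of a gene for reading and imply no order. All 8 enzymes rise above 0 in boars 71 and 72, SCD, ME1 and ACLY by more than 2. Of the adipocyte markers, ADIPOQ, PLIN1 and PLIN4 lie below 0 in both boars, and LIPE lies at 0 in boar 71 and below 0 in boar 72. CIDEC and LEP are highest in boar 71, and FABP4 is highest in boar 72.

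Markers of the tissue were present in the libraries as labelled. Adipocyte markers (7 of 8 listed were matched, none at 0 in all libraries of a tissue) summed to 16629, 19268, 14046, 12326 and 11578 CPM of all counts in backfat and to 12.6 to 20.3 CPM in liver, so that their sum was lowest in the same boars, 71 and 72, in which the enzymes were highest. The markers did not share 1 order. After TMM, ADIPOQ, PLIN1 and PLIN4 were lowest in boars 71 and 72, and LIPE was lowest in boar 72 (254 CPM) and at its median in boar 71 (422 CPM). CIDEC (660 CPM) and LEP (94.1 CPM) were highest in boar 71, while LEP in boar 72 (52.9 CPM) was below its median (75.1 CPM). FABP4 (5489 CPM) was highest in boar 72. Hepatocyte markers summed to 20340 to 106004 CPM in liver, with the lowest value in boar 67. Fibroblast and preadipocyte markers lay between 45120 CPM, in boar 69, and 80717 CPM, in boar 72, in backfat. Skeletal muscle markers were at 605, 158, 198, 33.9 and 12.6 CPM in backfat, also lowest in boars 71 and 72, and endothelial markers were at 745 to 1492 CPM with the same boars lowest. Leukocyte markers were at 170 to 410 CPM, lowest in boar 71, and red cell markers at 131 to 572 CPM, highest in boar 72. The part of these differences in tissue make-up in the levels of the enzymes was not tested.

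Balances between enzymes were measured as log2 ratios of counts within a library, which do not depend on the scaling of libraries. ME1 and PGD supply NADPH by different routes. Their log2 ratio was -2.42, -1.75, -2.07, -0.08 and -0.38 in backfat and -3.42, -4.63, -3.20, -3.49 and -4.15 in liver. The balance was thus shifted to ME1 in backfat, with no overlap: the mean was -1.34 ± 1.05 (SD, n = 5) against -3.78 ± 0.60, a difference of 2.44 (p = 0.00794 in a two-sided exact permutation test, the smallest that 252 arrangements allow, and 0.0238 after Benjamini-Hochberg adjustment over the 3 ratios). The ratio was higher in backfat in 5 of 5 boars.

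The log2 ratio of SCD to FASN, of desaturase to synthase, was -3.49, -3.67, -1.35, -0.75 and -0.36 in backfat and -0.78, -0.02, -0.27, 0.17 and -0.26 in liver. SCD was therefore lower relative to FASN in backfat, by 1.69 on the log2 scale (adjusted p = 0.0357, exact permutation test) and in 5 of 5 boars, although its own level was called higher there. In boars 65 and 67 the gap was widest. For ELOVL6 to FASN the means were -2.43 ± 0.38 (SD, n = 5) in backfat and -1.77 ± 0.47 in liver, a difference of -0.66 (adjusted p = 0.0476, exact permutation test), and the ratio was higher in backfat in 1 of 5 boars. When signs were flipped within boars, where the smallest possible p is 0.0625, the exact test gave adjusted p-values of 0.0938 for ME1 to PGD, 0.0938 for SCD to FASN and 0.188 for ELOVL6 to FASN. The adjusted p of SCD to FASN rose to between 0.0714 and 0.0873 (exact permutation test) when any 1 of the 5 liver libraries was left out. That of ELOVL6 to FASN rose to between 0.0595 and 0.0952 (exact permutation test) when any 1 library other than the backfat of boar 69 was left out.

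**Figure D5:**
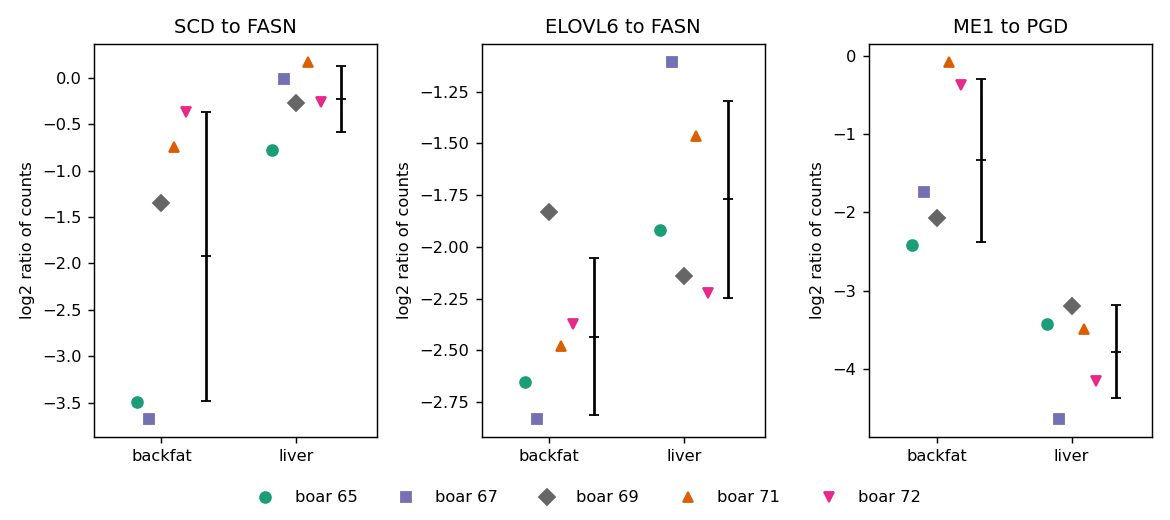
Log2 ratio of counts within each library for SCD to FASN, ELOVL6 to FASN and ME1 to PGD, with 1 symbol per boar and the mean ± SD of the 5 libraries of a tissue as a black bar; the vertical axes differ. ME1 to PGD separates the tissues, and SCD to FASN spans -3.67 to -0.36 in backfat and -0.78 to 0.17 in liver.

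Genes around the members were read from a wider list of 65 genes in 6 groups, of which 61 were matched and 59 tested. In it, backfat had 8 called genes and liver 2, and at the adjusted p alone 22 were higher in backfat, 16 higher in liver and 21 did not pass. Over all genes tested, the shares called were 11.1% in backfat and 11.2% in liver. At the adjusted p alone they were 28.0% and 27.0%. In the list, the number called higher in backfat and the number higher in liver at the adjusted p lay near these shares. Genes called higher in liver (2 of 59) were fewer than that share, and genes higher in backfat at the adjusted p (22 of 59) were more. Of the genes that supply citrate and acetyl-CoA, 8 of 10 were higher in backfat at the adjusted p (28.0% of all genes tested), or 5 of 10 without the backfat libraries of boars 71 and 72, and 0 were higher in liver (27.0%). The 2 called genes were MDH1, the cytosolic malate dehydrogenase that links ACLY to ME1 (2.94 ± 0.33, SE, adjusted p = 1.02e-05), and PC, pyruvate carboxylase (2.26 ± 0.30, adjusted p = 3.62e-05). In 9 of these 10 genes the backfat libraries of boars 71 and 72 were the highest, against 23 of 59 in the whole list and 14.2% of all genes tested.

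Of the genes of NADPH supply, 5 of 9 were higher in backfat at the adjusted p (28.0% of all genes tested) and 2 higher in liver (27.0%). RPIA, an isomerase of the pentose phosphate pathway, was called (2.35 ± 0.26, SE, adjusted p = 9.23e-06).

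Among the 11 genes that act on acetyl-CoA carboxylase or on its product, 0 were higher in backfat at the adjusted p (28.0% of all genes tested) and 4 were higher in liver (27.0%), or 1 without the backfat libraries of boars 71 and 72. Scaling by library totals alone turned this balance to 4 in backfat and 1 in liver. THRSP (Spot 14), a lipogenic protein, had 565, 280, 1291, 1399 and 1465 CPM in backfat and 528, 74.6, 825, 1062 and 830 CPM in liver, and its log2 fold change of 0.59 ± 0.61 (SE) did not pass the test (adjusted p = 0.431). Both tissues thus held THRSP at overlapping levels. Mitochondrial fatty acid synthesis, a separate pathway that makes the precursor of lipoate, had 0 of 7 genes higher in backfat and 4 higher in liver, beside the same shares of all genes, or 2 and 3 with scaling by library totals alone.

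In the group of elongation and desaturation, 4 of 13 genes were called higher in backfat (11.1% of all genes tested) and 2 higher in liver (11.2%). Among the elongases, ELOVL7 (2.46 ± 0.22, SE, adjusted p = 1.42e-06) and ELOVL4 (2.27 ± 0.37, adjusted p = 0.000220) were called higher in backfat. The level of ELOVL4 was low, with means of 1.08 CPM in backfat and 0.22 CPM in liver. ELOVL5 was higher in backfat at the adjusted p (1.25, adjusted p = 0.0117), though not without the backfat libraries of boars 71 and 72 (1.00, adjusted p = 0.0753). ELOVL1 did not pass (0.38), and ELOVL2, which acts on polyunsaturated chains, was higher in liver (-5.33 ± 0.40, adjusted p = 3.18e-07). HACD1, a dehydratase of the elongation cycle, was higher in backfat (2.44 ± 0.26, adjusted p = 5.13e-06), and CYB5A, the cytochrome that feeds electrons to desaturases, was higher in liver (-2.85 ± 0.30, adjusted p = 5.06e-06).

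Of the 9 transcription factors and their partners, 2 were higher in backfat at the adjusted p and 3 higher in liver, near the shares of all genes tested (28.0% and 27.0%), or 5 and 1 with scaling by library totals alone. PPARG, the adipocyte regulator, had 118 to 202 CPM in backfat and 0.191 to 1.67 CPM in liver (7.78 ± 0.52, SE, adjusted p = 1.11e-07). SREBF1 was higher in backfat at the adjusted p (1.06 ± 0.36, adjusted p = 0.0245) but under the fold threshold, with an SD of log2 CPM of 0.18 over the backfat libraries. It did not pass the adjusted p without the backfat libraries of boars 71 and 72 (1.00, adjusted p = 0.0879). MLXIPL (ChREBP) was at 154, 246, 108, 345 and 311 CPM in backfat and 482, 255, 348, 544 and 393 CPM in liver. Its log2 fold change of -0.80 ± 0.33 did not pass the test (adjusted p = 0.0583). Nor did it pass with library totals alone (-0.09, adjusted p = 0.811), DESeq2 size factors (-0.83, adjusted p = 0.0539) or TMM without mitochondrial genes (-0.83, adjusted p = 0.0522). It passed with the boar as a block (-0.87, adjusted p = 0.0403), with DESeq2 (-0.81, adjusted p = 0.0395) and without the backfat libraries of boars 71 and 72 (-1.25, adjusted p = 0.0165). The backfat levels of MLXIPL were highest in boars 71 and 72, as in the 8 enzymes. That pattern was found in 3 of the 9 genes of this group and in 14.2% of all genes tested. PPARG was highest in boar 72 and next in boar 65.

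The genes whose pattern over the 10 libraries was most like that of FASN were MDH1, SLC2A4, ELOVL6, DGAT2 and an unnamed gene of low counts, ENSSSCG00000049027. Likeness was measured as the root mean square difference in log2 CPM after each gene was centred on its own mean, and these 5 had differences of 0.48, 0.48, 0.51, 0.59 and 0.61. SLC2A4 is the insulin-responsive glucose transporter, and DGAT2 makes triglyceride. Among the other members, ACLY ranked 14 and ME1 31 of all genes tested in this likeness, ACACA 86, PGD 584, SLC25A1 1541 and SCD 1735.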

How the data were processed

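Gene levels were measured by poly(A) RNA-seq in backfat and liver of 5 boars. Per the labels and the methods of the study, the authors used Trimmomatic to trim the reads, HISAT2 to place them on Sscrofa11.1, and featureCounts 2.0.1 with the genes of Ensembl release 99. The deposited values are raw counts per gene, with exon length, made with no strand option in the command of the file header, so that reads of overlapping genes on opposite strands cannot be told apart. Column names carry a number shared by both tissues, which was taken as the boar, and pairing by animal rests on it. Deviations from the tissue means correlated between the tissues of the same number at 0.049 to 0.238. Cytosine call tables carry no gene position and were not used.

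Counts were tested in R 4.3.3 with edgeR 4.0.16 (filterByExpr by tissue, TMM, glmQLFit and glmQLFTest, tissue as the only term) and Benjamini-Hochberg adjustment over 16275 genes. The study used DESeq2, which is an alternative here. All adjusted p-values of fold changes are from edgeR's test unless DESeq2 1.42.0 or limma 3.58.1 (voom) is named. Standard errors come from the fold change and the F statistic. SDs of log2 CPM used a prior count of 2. Marker sums are CPM without TMM. Ratios were tested by exact permutation in Python 3.11.15. The fits were checked on simulated counts with known changes. The lowest count of a member in any library was 157 (ME1, liver of boar 67).

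Symbols were matched by the reference gene tables, which name 15029 genes of the counts; MPC1, RPE, TECR and OLAH of the wider list and CIDEA, FGA and VWF of the markers were not matched, and ME3 and ELOVL3 were too low to test. Genes are named by a rule: all members, up to 4 called genes with the largest change in each group of the wider list, THRSP, SREBF1 and MLXIPL, and the 5 genes most like FASN; 1 gene that the rule names is not reported here, and ELOVL1, ELOVL4 and ELOVL5 were named after their values were seen. The members and lists were chosen with earlier results of these data known. Gene positions, overlaps and upstream windows are from the NCBI (RefSeq) annotation of Sscrofa11.1. The reads were counted on Ensembl exons, which can differ from it. The alternatives were other scalings, tests and filters, the boar as a block, and libraries left out; leaving out the backfat of boars 71 and 72 was added after the data were seen.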

Additional observations from a re-analysis of the deposited data

Results flagged for a closer look

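In 54 groups of 5 libraries that were examined for a value far from the others, 1 was found, and chance gives about 1 in 20. DGAT2, one of the genes most like FASN over the libraries, had 47.6 CPM in the liver of boar 67, where the next lowest liver library had 169 CPM and the highest 203 CPM. Its gap to the nearest library was 0.782 of the range of the 5 livers, above Dixon's critical value.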

How the results depend on the processing

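Of 378 recomputed values, 341 kept direction and side of the threshold (a count or SD, its size), 29 lost a call, 6 gained one, 2 moved by over 1.5 times and 0 reversed. Library size alone shifted the median over all genes by 0.71 (log2) and the genes called higher in backfat from 1814 to 2874, against 1340 instead of 1819 in liver. Under it ACACA (2.59) and PGD (2.17) were called, as were 14 instead of 8 genes of the wider list. Requiring at least 10 counts in every library left 13026 genes tested, with 871 called higher in backfat and 981 higher in liver. The call of SCD was lost with limma-voom (1.56) and with the boar as a block (1.46). The block also brought SLC25A1 under an adjusted p of 0.05 (0.70, adjusted p = 0.0451) and changed no other call of a member. Sign flips within boars kept the ratio differences of -1.69 (SCD to FASN), -0.66 (ELOVL6 to FASN) and 2.44 (ME1 to PGD) and lost their calls, since 5 pairs cannot reach a p of 0.05. Without the backfat of boars 71 and 72, an alternative chosen after seeing the data because these libraries were the highest, 2 members were called (FASN and ME1). ACLY (1.89) and ELOVL6 (1.86) then fell under the fold threshold, and the calls of SCD (0.15) and ELOVL6 to FASN (-0.67) were lost. Without backfat of boar 69 and liver of boar 67 the SCD to FASN difference of -1.79 lost its call. Leaving out 1 library at a time gave 4 to 6 members called. The log2 fold changes then spanned 1.64 to 2.12 for ACACA and 2.0 to 2.89 for SCD, and the ratio differences -0.81 to -0.50 for ELOVL6 to FASN and -2.08 to -1.26 for SCD to FASN. The cause of these changes was not tested. A comparison of ACACA with ACACB was planned and not run. With 5 animals per tissue, small differences cannot be told from the spread.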
